A study of Bos taurus with 12 samples.

Results

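The genes described here encode the subunits of the proteasome, together with its activators and assembly chaperones, in the mammary gland (MG) of dairy cows. Members were chosen by name: every non-control probe whose RefSeq accession carried, in the bovine RefSeq table, a symbol made of PSMA, PSMB, PSMC, PSMD, PSME or PSMG and digits, leaving out PSMB8 and PSMB9. The table held 45 such symbols. The array measured 42 of them with 81 probes, out of 12639 named genes and 43653 probes in all. PSMA8, PSME3 and PSMG4 matched no probe and were not analysed here. The rule uses names and no expression value, but the members were chosen with earlier results of these data known. Throughout, the brightest probe of a gene stands for that gene.

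The proteasome is the main protease of the cytosol and nucleus for proteins tagged with ubiquitin. Its core is a barrel of stacked rings, in which the outer alpha rings (PSMA) control entry and the inner beta rings (PSMB) carry the proteolytic sites. A regulatory cap (PSMC and PSMD) binds the ubiquitin chain, removes it, unfolds the substrate and feeds it into the barrel, while other activators (PSME) open the barrel without ubiquitin. Inflammatory cytokines such as interferon-gamma induce some subunits and activators, and in an MG that secretes large amounts of milk protein the proteasome also degrades misfolded proteins removed from the endoplasmic reticulum.

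The question addressed was how feed restriction modifies the MG transcriptome during an inflammatory challenge. Multiparous Holstein cows in early lactation (24 ± 3 days in milk) received either a lactation diet at will (CONT, 6 cows) or the same kind of ration diluted with barley straw to 48% of dry matter for 4 days (REST, 6 cows). On day 3, 50 µg of lipopolysaccharide (LPS) from Escherichia coli was infused through the teat into 1 healthy rear gland of each cow, and the MG was biopsied 24 h later. All 12 cows had received LPS and no unchallenged gland was measured, so that the values compare diets in inflamed glands. Each cow gave 1 array, without pooling, and the p-values measure the spread between cows. The study had kept the cows whose RNA passed its quality check.

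The arrays were one-color Agilent arrays. Levels are given as log2 signal relative to the 75th percentile of the array, and a difference as the log2 fold change (log2 FC) of REST minus CONT. The 75th percentile of the signal was 577 to 1184 in CONT and 387 to 1082 in REST, and 57.6 to 76.0% of probes in CONT and 63.2 to 78.1% in REST were well above background. The 12 arrays lay on 3 slides of 4. Slide 1 held 3 CONT arrays and 1 REST array, slide 2 held 1 CONT and 3 REST, and slide 3 held 2 of each. All 9 markers of milk-secreting epithelium that were measured exceeded the background call on each array. The library of REST cow 0049, on slide 2, stood apart for the proteasome genes, being the lowest of the 12 in 23 of the 42, and values without it are given below.

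No proteasome gene passed the test between the diets, although most had a slightly lower mean in REST. Of the 42 genes, 36 had a lower mean in REST and 6 a higher mean, which is 85.7% lower against 56.5% of all 12639 genes. The log2 FC ranged from -0.42 (PSMB10) to 0.14 (PSMB11), or 0.748-fold to 1.11-fold, with a median of -0.10 against -0.034 for all genes. The middle 50% of the genes lay between -0.20 and -0.032. With limma and Benjamini-Hochberg adjustment over all probes, 0 of the 42 genes were below 0.05, the lowest adjusted p being 0.9999. As 0% of all genes passed, this count does not set the proteasome genes apart. The study, with its Westfall-Young adjustment, did report genes that differed between the diets. Its list of known genes holds no proteasome subunit. At an unadjusted limma p below 0.05, the count was again 0 of 42, against 2.64% of all genes (1.01% lower and 1.63% higher in REST). Only PSMC6 was below an unadjusted p of 0.1, a level reached by 6.04% of all genes. CONT and REST overlapped in every proteasome gene, while 0.15% of all genes did not overlap.

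These genes were measured with less spread than most. The residual SD between cows ran from 0.12 (PSMG3, a core assembly chaperone) to 0.44 (PSMB11), with a median of 0.22, against 0.44 over all genes and 0.33 over the genes called above background on each array. The standard error of the log2 FC was 0.13 to 0.26. All 42 of the 95% confidence intervals (CI) lay inside a 2-fold change in either direction, and 31 lay inside a 1.5-fold change. The lowest bound was -0.98 (0.509-fold, PSMB10) and the highest was 0.69 (1.61-fold, PSMB11). In 17 of the 42 genes the log2 FC was below minus its standard error, against 14.7% of all genes. All but PSMB11 passed the background call on the 12 arrays, and none was saturated.

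**Figure D1:**
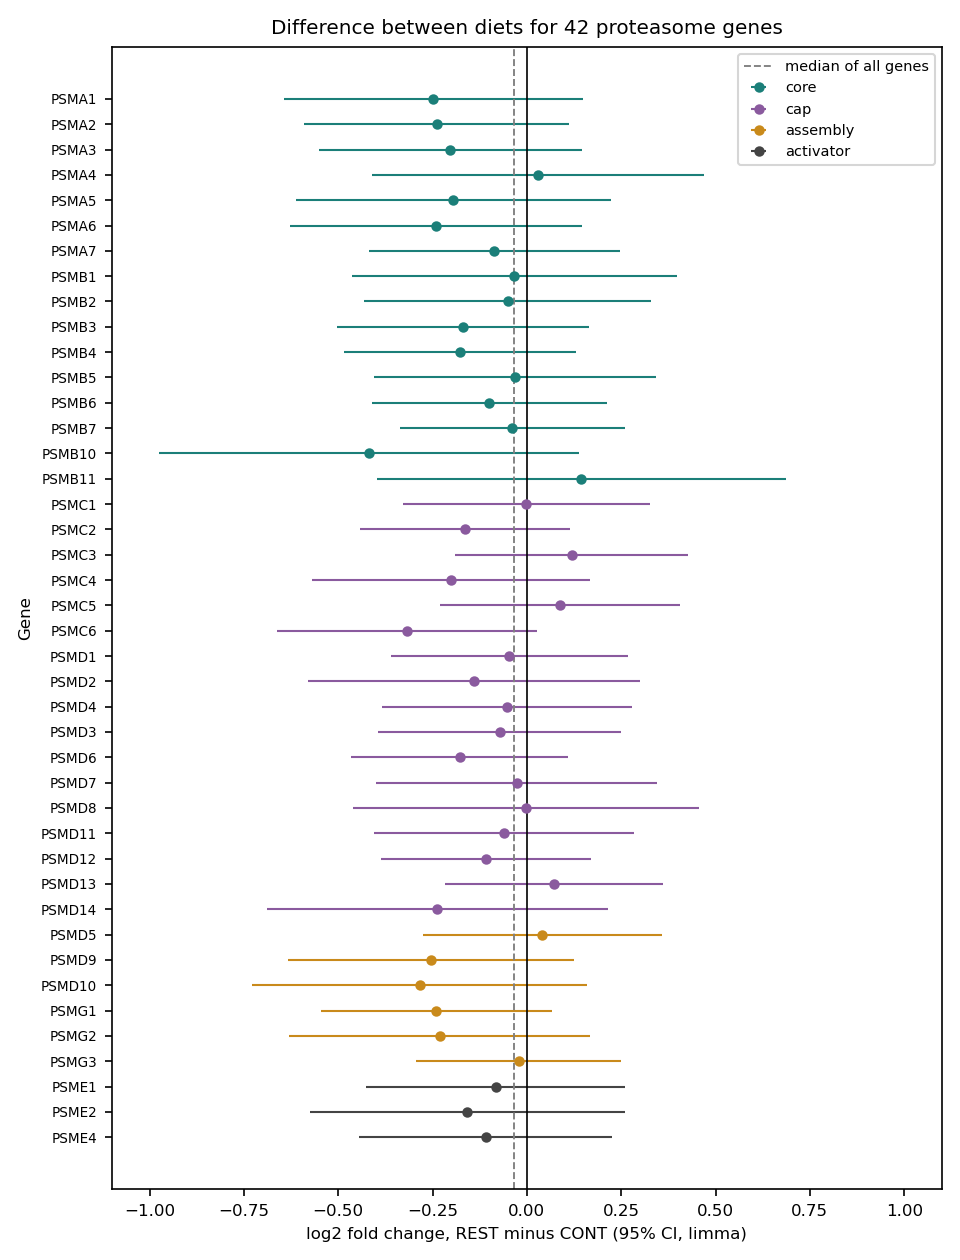
Log2 FC of REST minus CONT for the 42 proteasome genes (horizontal axis, points) with 95% CI from limma (bars), grouped by part of the proteasome and colored by class. The dashed line is the median of all genes (-0.034). All bars cross 0, and 36 of the 42 points lie to the left of it.

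Some REST cows were low for the proteasome genes and others were not. Taking, in each cow, the median over the proteasome genes of the deviation from the mean of the 12 cows, CONT ranged from -0.12 to 0.19 with a median of 0.034, and REST ranged from -0.30 to 0.12 with a median of -0.058. The 3 lowest cows were REST cows 0049 (-0.30), 1015 (-0.14) and 7043 (-0.12), followed by CONT cow 1076 (-0.12). REST cows 0078 (0.12) and 1058 (0.10) were among the 4 highest, with CONT cows 1024 (0.19) and 9040 (0.17). Cow 0049 had 4 of 42 genes above the 12-cow mean and cows 1015 and 7043 had 9 each, whereas CONT cow 9040 had 40. Over all genes, 43.4 to 61.0% were above the mean in a given cow, and cow 0049, at 51.1%, was near the middle. Without this cow the median log2 FC of the proteasome genes was -0.047, with 32 of 42 lower in REST. Leaving it out moved the log2 FC of 28 of the 42 genes by over 1.5 times, 23 of them towards 0, and turned the sign of 6 (PSMB1, PSMB2, PSMB5, PSMB11, PSMC1 and PSME1).

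**Figure D2:**
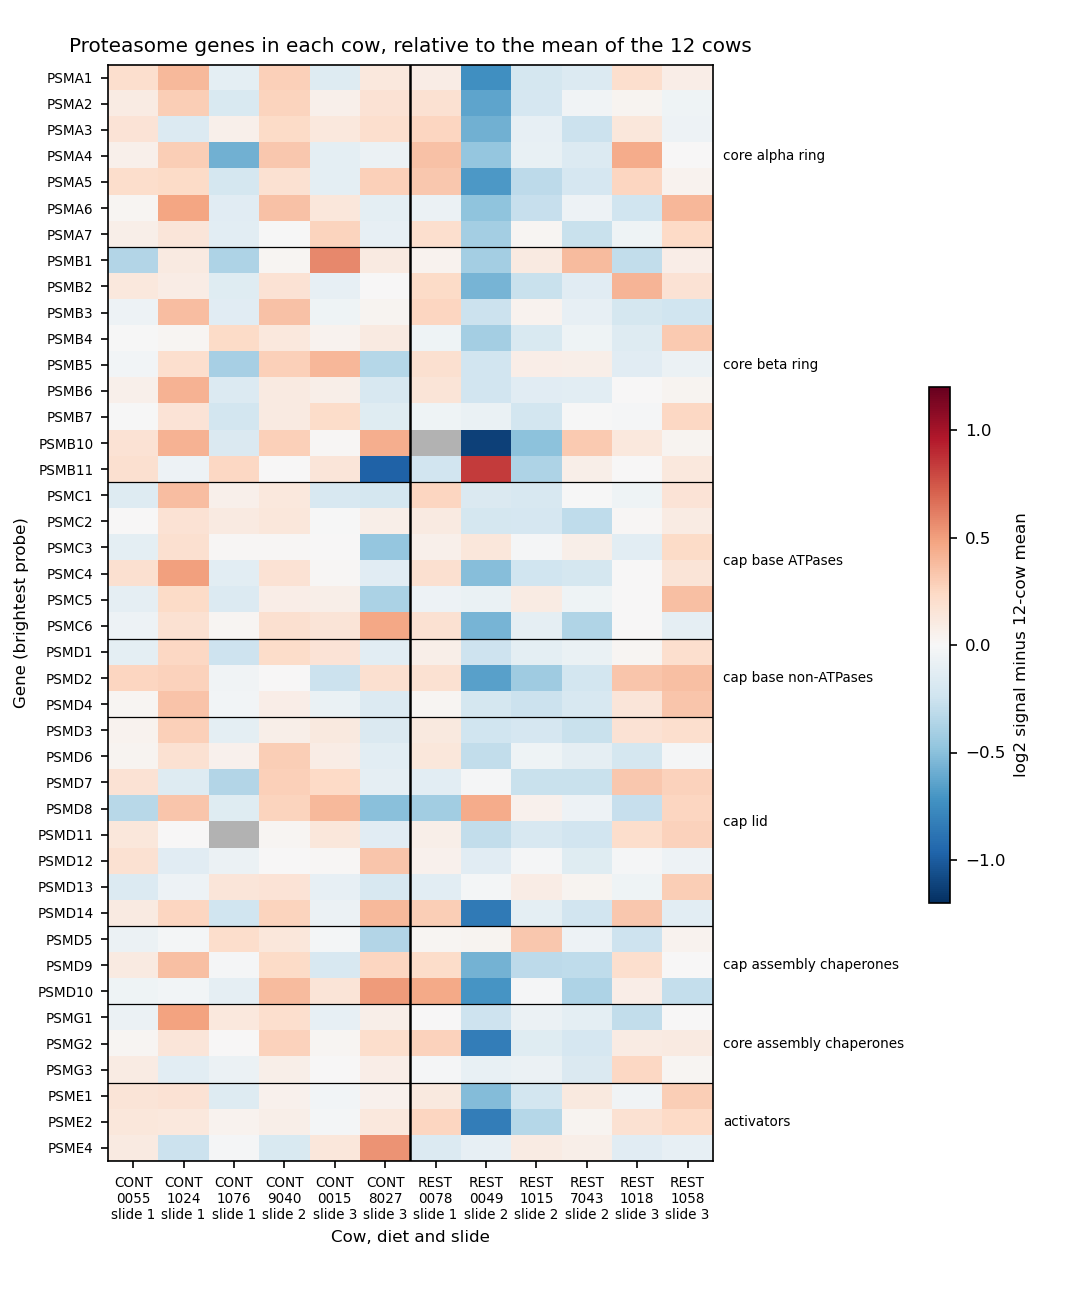
Level of each proteasome gene (rows, by part of the proteasome) in each cow (columns, by diet and slide) as log2 signal minus the mean of the 12 cows, with blue below and red above the mean. The column of REST cow 0049 is blue for most genes. Gray cells are spots that the image software marked as outliers.

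**Figure D3:**
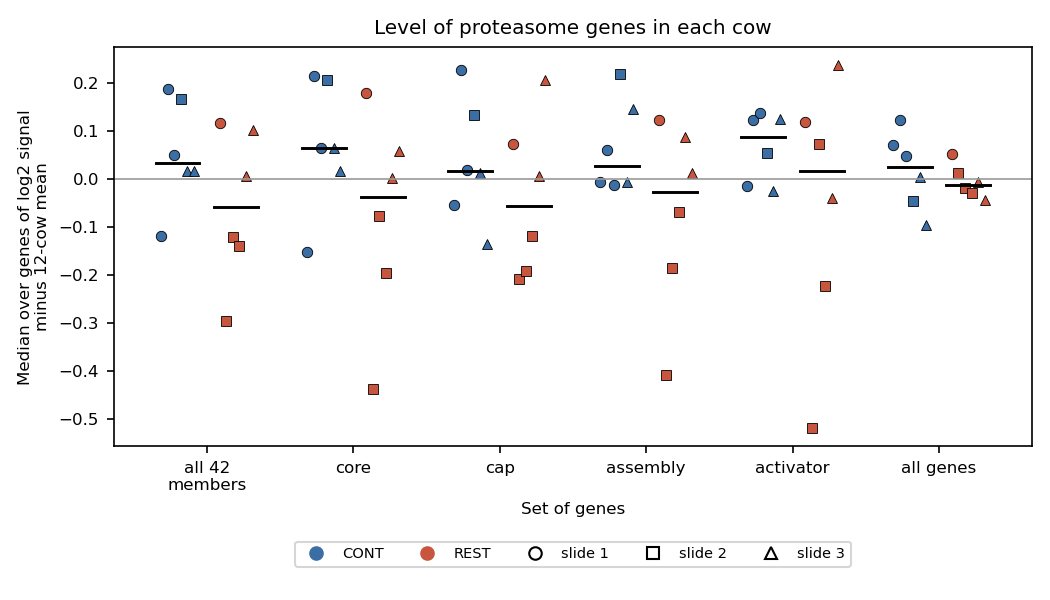
Median deviation from the 12-cow mean (vertical axis, log2) in each cow for all 42 proteasome genes, for the core, cap, assembly and activator genes, and for all genes. Points are cows, symbols are slides and bars are the median of the 6 cows of a diet. In the column of all 42 genes the 3 REST cows of slide 2 are the lowest REST cows, and the diets overlap in every set.

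The 3 lowest REST cows shared slide 2, and the direction of the difference was not the same on every slide. Within slide 2 (1 CONT and 3 REST cows), 39 of 42 genes were lower in REST, with a median of -0.36. There, 44.3% of all genes were lower. Within slide 1 (3 CONT and 1 REST cows), 14 of 41 genes were lower and the median was 0.048, while 51.8% of all genes were lower. Within slide 3, the balanced one, 14 of 42 genes were lower and the median was 0.076, while 49.1% of all genes were lower. With slide as a block in the limma fit, the median was -0.069 and 30 of 42 genes were lower in REST, against 47.6% of all genes. The block moved the log2 FC of 25 of the 42 genes by over 1.5 times. It turned the sign of 6 (PSMB2, PSMC1, PSMD2, PSMD3, PSMD4 and PSMD11). The sign was the same on all 3 slides in 2 genes. PSMG1 was lower in REST on each slide and PSMC3 was higher on each. The part of slide in the difference and that of single cows cannot be told apart, since slide 2 held a single CONT cow. The 3 REST arrays of slide 2 were also the dimmest of the 12, with a 75th percentile of 387 (cow 0049), 508 (cow 1015) and 570 (cow 7043), which is the order of their proteasome medians. CONT cow 0015, the next dimmest at 577, had a proteasome median of 0.017, and CONT cow 1076, the fourth lowest for the proteasome genes, was among the brighter at 1046. The part of array signal in the proteasome values was not tested.

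**Figure D4:**
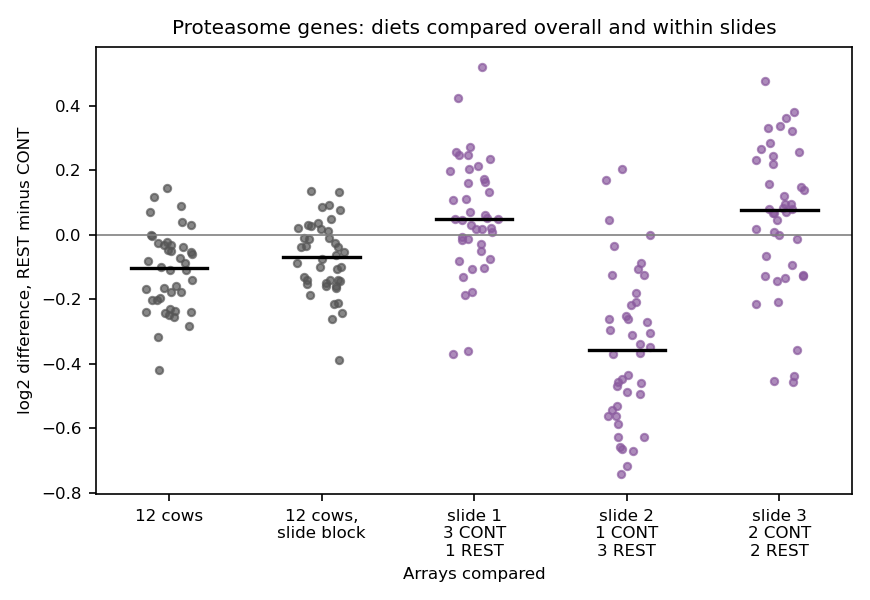
Log2 difference of REST minus CONT for each proteasome gene (points) over the 12 cows, with slide as a block, and within each of the 3 slides. Bars are medians. The median is below 0 over the 12 cows (-0.10) and within slide 2 (-0.36), and above 0 within slide 1 (0.048) and slide 3 (0.076).

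The core showed a median log2 FC of -0.13 over its 16 genes, 14 of them lower in REST. The core median was -0.070 without cow 0049 and -0.089 without CONT cow 1024. In the alpha ring, 6 of the 7 genes measured were lower in REST, with a median of -0.20. The 6 were PSMA1 (-0.25), PSMA6 (-0.24), PSMA2 (-0.24), PSMA3 (-0.20), PSMA5 (-0.19) and PSMA7 (-0.086), and the exception was PSMA4 (0.029). PSMA4 was at -0.082 without CONT cow 1076 and at 0.097 without CONT cow 9040, and its other probe was at -0.092. Without cow 0049, PSMA1 was at -0.13, PSMA6 at -0.17, PSMA5 at -0.076 and PSMA7 at -0.013, and with slide as a block PSMA1 was at -0.16 and PSMA5 at -0.075. PSMA2 (NM_001034662) had the lowest p of the ring. Its level was 2.23 at the lowest, 2.55 at the median and 2.70 at the highest in CONT, and 1.78, 2.36 and 2.59 in REST. In 5 of the 6 REST cows it was below the CONT mean, and cow 0049 was again the lowest. REST minus CONT gave a log2 FC of -0.24 (SE 0.16, 95% CI -0.59 to 0.11, unadjusted limma p = 0.16), and an exact two-sided permutation test over the cows gave p = 0.093. Without cow 0049 the log2 FC was -0.14. PSMA3 (NM_001034235), described because the study lists its protein, was at 1.93, 2.24 and 2.32 in CONT and at 1.52, 2.01 and 2.35 in REST. The highest REST cow (0078) exceeded every CONT cow and the lowest (0049) was below them all. Its log2 FC was -0.20 (SE 0.16, exact permutation p = 0.16), and -0.11 without cow 0049.

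In the beta ring, 8 of 9 genes were lower in REST, but with a median of only -0.051. The catalytic subunits of the constitutive core were close to 0: PSMB5, the chymotrypsin-like site, at -0.031 (SE 0.17), PSMB6, the caspase-like site, at -0.099 (SE 0.14), and PSMB7, the trypsin-like site, at -0.039 (SE 0.14). PSMB6 was at -0.027 without CONT cow 1024 and at -0.034 with slide as a block. Without CONT cow 1076 PSMB5 was at -0.11 and PSMB7 at -0.087, and without CONT cow 9040 PSMB5 was at 0.023. Among the structural subunits, PSMB4 was at -0.18 (SE 0.14) and PSMB3 at -0.17 (SE 0.15), while PSMB1 (-0.033) and PSMB2 (-0.051) differed less. PSMB4 was at -0.11 without cow 0049, and PSMB3 was at -0.11 without CONT cow 1024. In PSMB4, 5 of the 6 REST cows were below every CONT cow and the remaining one, cow 1058, was above every CONT cow.

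PSMB10 (NM_001034040) encodes the interferon-inducible subunit that takes the place of PSMB7 in the immunoproteasome, the form of the core that favors peptides for antigen presentation. It had the lowest log2 FC of the 42 genes and one of the widest spreads. In CONT its level was 1.13 at the lowest, 1.53 at the median and 1.74 at the highest. In REST it was 0.18, 1.34 and 1.62 over 5 cows, because the spot of cow 0078 was marked as an outlier and left out. Most REST values lay within the CONT range, and cows 0049 and 1015 lay below it. The log2 FC was -0.42 (SE 0.26, 95% CI -0.98 to 0.14, unadjusted limma p = 0.13, exact permutation p = 0.15) and it was -0.20 without cow 0049. Within slides 2 and 3 it was -0.72 and -0.14. PSMB11, which encodes a subunit known from the thymic cortex, was the dimmest of the genes relative to background (well above it on 10 arrays) and had the highest log2 FC, 0.14 (SE 0.25), which was -0.0093 without cow 0049 and -0.035 without CONT cow 8027.

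The cap differed less, with a median of -0.061 over 17 genes, 14 of them lower in REST. This small median moved with several cows: it was -0.027, -0.026 and -0.028 without REST cows 0049, 7043 and 1015, and -0.12, -0.11, -0.10 and -0.10 without REST cows 1058 and 1018 and CONT cows 8027 and 1076. Its base holds a ring of ATPases (PSMC1 to PSMC6) that unfolds the substrate. Here 4 of 6 were lower, PSMC6 (-0.32), PSMC4 (-0.20), PSMC2 (-0.16) and PSMC1 (-0.0012), and PSMC3 (0.12) and PSMC5 (0.088) were higher. PSMC4 was at -0.12 without cow 0049 and also without CONT cow 1024, and without CONT cow 8027 PSMC3 was at 0.037 and PSMC5 at 0.022. PSMC6 (NM_001046240) had the lowest p of all 42 genes. Its level was 1.97 at the lowest, 2.20 at the median and 2.49 at the highest in CONT, and 1.47, 1.92 and 2.22 in REST. Of the 6 REST cows, 4 were below every CONT cow, whereas cow 0078, at 2.22, had 3 CONT cows above it and 3 below. The log2 FC was -0.32 (SE 0.16, 95% CI -0.66 to 0.028), with an unadjusted limma p of 0.068, an adjusted limma p of 0.9999 and an exact two-sided permutation p of 0.026. It was 0.13, -0.53 and -0.36 within slides 1, 2 and 3, and -0.26 with slide as a block. Because PSMC6 was named for its low p, these p-values describe it and do not single it out.

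The other subunits of the base, PSMD1 and PSMD2, which form its scaffold, and PSMD4, a ubiquitin receptor, were at -0.046, -0.14 and -0.052. Without CONT cow 1024 PSMD1 was at -0.0012 and PSMD4 at 0.012, and without CONT cow 1076 PSMD1 was at -0.10. With slide as a block PSMD4 was at 0.032. PSMD2 (NM_001101197), whose protein the study also lists, was at 3.17, 3.53 and 3.71 in CONT (lowest, median and highest) and at 2.78, 3.41 and 3.79 in REST. The REST cows fell on both sides of the CONT cows, the 3 of slide 2 being the lowest REST cows and those of slide 3 the highest. PSMD2 had a log2 FC of -0.14 (SE 0.20, unadjusted limma p = 0.50, exact permutation p = 0.48), and it turned to 0.027 with slide as a block. It was -0.025 without cow 0049, -0.071 without cow 1015, -0.22 without cow 1018 and -0.23 without cow 1058. Within slide 3 it was 0.38 and within slide 2 it was -0.43.

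The lid of the cap, which cleaves the ubiquitin chain from the substrate, had a median of -0.066, with 7 of 8 genes lower in REST. PSMD14, the deubiquitinating enzyme itself, was at -0.24 (SE 0.21), -0.091 without cow 0049 and -0.15 with slide as a block, and PSMD7, its partner, was at -0.027 (SE 0.17). PSMD6 (NM_001034649), a structural subunit, had the lowest p of the lid. It was at 2.40, 2.60 and 2.82 in CONT and at 2.23, 2.45 and 2.66 in REST. A total of 5 REST cows lay below the CONT mean and 2 lay below every CONT cow. For PSMD6 the log2 FC was -0.18 (SE 0.13, 95% CI -0.47 to 0.11, unadjusted limma p = 0.20, exact permutation p = 0.065). It was -0.11 with normexp background correction and quantile normalization, and 0.045, -0.45 and -0.093 within slides 1, 2 and 3. PSMD12 (-0.11, SE 0.13) was below the CONT mean in all 6 REST cows, and its log2 FC was -0.054 without CONT cow 8027. The remaining lid genes were PSMD3 (-0.072), PSMD11 (-0.061, over 5 CONT cows because 1 spot was marked as an outlier), PSMD8 (-0.0034) and PSMD13 (0.071).

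The assembly chaperones had the lowest median of the 4 classes, -0.24 over 6 genes, 5 of them lower in REST. It was -0.13 without cow 0049 and -0.14 with slide as a block. PSMD5, PSMD9 and PSMD10 hold ATPase subunits until the base is built. PSMD10 (-0.28, SE 0.21, and -0.17 without cow 0049) and PSMD9 (-0.25) were lower and PSMD5 (0.041) was not. PSMD9 (NM_001034441) was at 0.81, 1.17 and 1.36 in CONT and at 0.43, 0.84 and 1.22 in REST. The 3 REST cows of slide 2 were below every CONT cow, and the other 3 were within the CONT range. The log2 FC was -0.25 (SE 0.18, unadjusted limma p = 0.17, exact permutation p = 0.12), and it was -0.17 without cow 0049 and -0.14 with slide as a block. Within slides 1 and 3 it was 0.070 and 0.066.

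The chaperones PSMG1, PSMG2 and PSMG3 guide the assembly of the core, PSMG1 and PSMG2 as a pair that builds the alpha ring. PSMG1 (NM_001076347) was the only gene among the 10 described by level that kept its sign on all 3 slides. Its level was 3.12 at the lowest, 3.32 at the median and 3.71 at the highest in CONT, and 2.92, 3.13 and 3.22 in REST. Each of the 6 REST cows was under the mean of CONT and 3 were under every CONT cow, although the groups overlapped. The log2 FC was -0.24 (SE 0.14, 95% CI -0.55 to 0.066, unadjusted limma p = 0.11, exact permutation p = 0.032). It was -0.18, -0.35 and -0.13 within slides 1, 2 and 3, -0.21 with slide as a block, and -0.28 to -0.17 when each cow was left out in turn. Here cow 1018, and not cow 0049, was the lowest. PSMG2 was at -0.23 (SE 0.18), but at -0.088 without cow 0049 and -0.14 with slide as a block, and PSMG3 was at -0.022 (SE 0.13).

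The activators had a median of -0.11, with 3 of 3 lower in REST, and with slide as a block the median was -0.026. PSME1 and PSME2 form a ring that interferon-gamma induces, and PSME4 is a large nuclear activator. PSME1 (NM_001024509) was at 4.25, 4.46 and 4.58 in CONT and at 3.89, 4.44 and 4.70 in REST, and PSME2 (NM_001014889) was at 4.25, 4.38 and 4.42 in CONT and at 3.45, 4.38 and 4.54 in REST. For both genes the medians of the diets were nearly equal and cow 0049 was the lowest of the 12 cows. The log2 FC of PSME1 was -0.082 (SE 0.16, unadjusted limma p = 0.61, exact permutation p = 0.56), and it was 0.013 without cow 0049, -0.046 without cow 1015, -0.15 without cow 1058 and -0.012 with slide as a block. That of PSME2 was -0.16 (SE 0.19, unadjusted limma p = 0.43, exact permutation p = 0.47), with -0.0072 without cow 0049, -0.10 without cow 1015 and -0.026 with slide as a block. The SD of PSME2 was 0.063 in CONT and 0.43 in REST. PSME4 was at -0.11 (SE 0.15), at -0.012 without CONT cow 8027 and at -0.17 without CONT cow 1024.

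**Figure D5:**
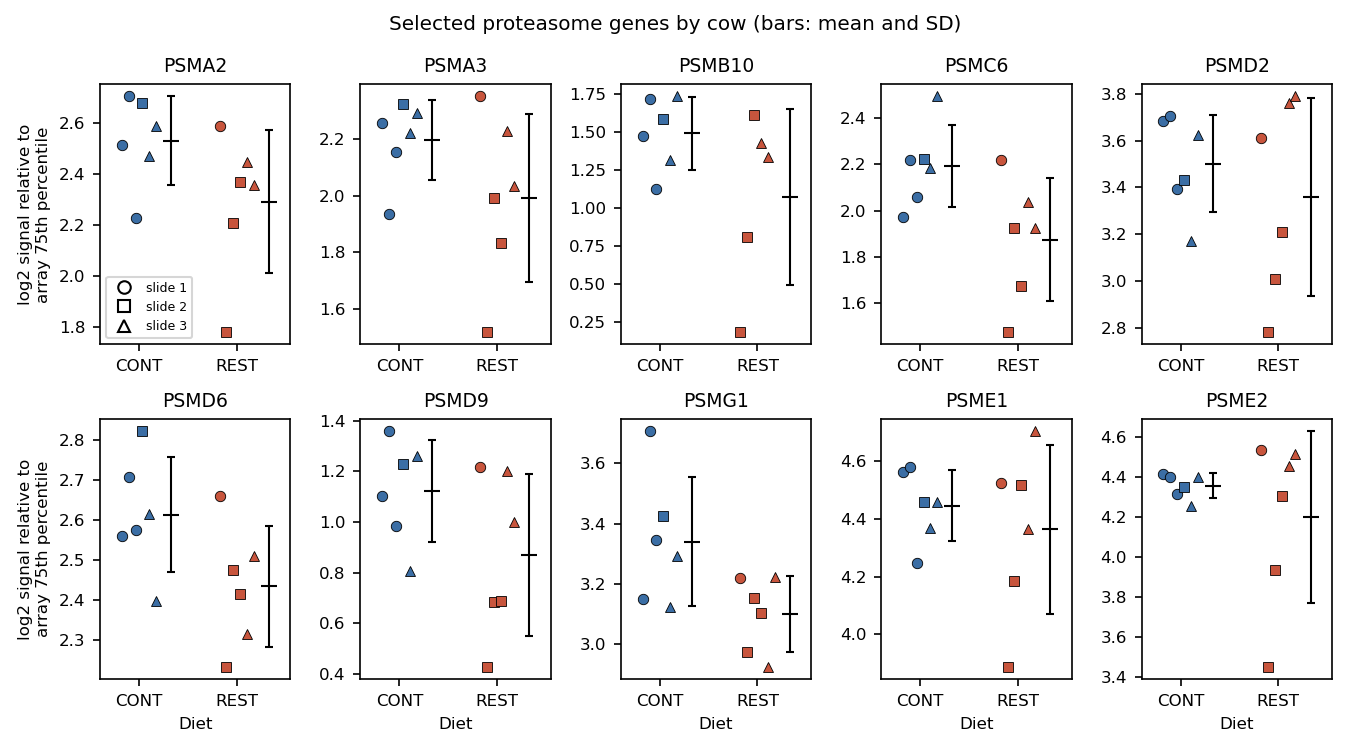
Level (log2 signal relative to the 75th percentile of the array) of the 10 proteasome genes described in detail, by diet. Points are cows, symbols are slides, and the bars beside them are the mean and SD (n = 6, and n = 5 for PSMB10 in REST). The diets overlap in each panel, and a square at the bottom of the REST column is cow 0049 in every panel except PSMG1.

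The probes of a gene had the same sign in 19 of the 25 genes with several probes, but not always the same size. With the brightest probe first, PSME1 was at -0.082 and -0.21, PSMB3 at -0.17 and -0.020, and PSMD14 at -0.24 and -0.096. In PSMB4, by contrast, both probes were at -0.18. The 5 probes of PSMD1 ran from -0.054 to 0.23. Of the 81 probes, 65 had a lower mean in REST and 16 a higher mean, against 53.9% lower among all probes, with a median log2 FC of -0.086. A total of 77 passed the background call on every array. At an unadjusted limma p below 0.05 there were 0 of 81, against 2.62% of all probes. Among the 25 genes with several probes, all probes were lower in 16, all were higher in 3 (PSMC5, PSMD5 and PSMD13) and signs were mixed in 6. In PSMC3 the brightest probe was at 0.12 (SE 0.14) and the other at -0.12 (SE 0.18). The highest value of the 81, 0.36 (SE 0.35), came from a dim probe of PSME4.

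Genes that work with the proteasome were taken from lists drawn up by function, with earlier results of these data known. For the other inducible core subunits, PSMB8 and PSMB9, the log2 FC was 0.055 (SE 0.25) and 0.081 (SE 0.26), and in both the sign turned with single cows. PSMB8 was at 3.38, 3.62 and 3.79 in CONT (lowest, median and highest) and at 2.83, 3.86 and 4.19 in REST. The spread of PSMB8 was wider in REST, where 4 cows were above every CONT cow and 2 were below them all. The log2 FC of PSMB8 was 0.22 without cow 0049, 0.19 without cow 1015, -0.039 without cow 7043, -0.056 without cow 1058 and 0.20 with slide as a block. PSMB9 was at 2.99, 4.18 and 4.33 in CONT and at 3.504, 3.92 and 4.64 in REST, where 4 of the 6 cows were below the CONT mean and cow 0049 was the highest. Its log2 FC was -0.041 without cow 0049, -0.11 without CONT cow 0015 and 0.14 with slide as a block. POMP, the chaperone that completes the core, was at -0.18 (SE 0.14). Of the proteins that bind the cap or inhibit the core, 9 of 9 measured were lower in REST, against 56.5% of all genes, with a median of -0.13, and 0 were below an unadjusted p of 0.05. With slide as a block 8 of 9 were lower and their median was -0.063, and within slides 1, 2 and 3 the count was 4, 8 and 4 of 9, with medians of 0.015, -0.26 and 0.023. The lowest was TXNL1, a thioredoxin-like protein bound to the cap, at -0.27 (SE 0.13, unadjusted limma p = 0.058, exact permutation p = 0.0087). TXNL1 was at -0.25, -0.26 and -0.28 within slides 1, 2 and 3. With slide as a block its unadjusted limma p was 0.10. That p was 0.05 or more in 10 of the 12 fits that left out a cow. Because TXNL1 was named after its value was seen, these p-values describe it and do not single it out.

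The regulators of proteasome transcription and the ubiquitin genes were divided in sign. Of 9 regulators measured, 5 were lower, and NFE2L1, the factor that raises proteasome genes when the proteasome is inhibited, was at -0.10 (SE 0.13). The ubiquitin genes and the factors that carry tagged proteins had a median of 0.037, with 6 of 14 lower in REST. SQSTM1, the receptor that carries ubiquitin-tagged cargo to autophagosomes, was the only gene of these lists below an unadjusted p of 0.05. It was at 1.91, 2.83 and 3.38 in CONT and at 3.098, 3.38 and 3.71 in REST. All REST cows were above the CONT median, while 3 CONT cows lay within the REST range. SQSTM1 had a log2 FC of 0.69 (SE 0.26, unadjusted limma p = 0.022, exact permutation p = 0.030, adjusted limma p = 0.9999), and it was 0.75, 0.82 and 0.71 within slides 1, 2 and 3. Without CONT cow 0015 it was 0.58, with an unadjusted limma p of 0.052.

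The cellular make-up of the biopsies differed between cows, and in bulk tissue fewer cells of a type and less RNA per cell cannot be told apart. The summed level of 6 fibroblast markers (linear signal relative to the 75th percentile) was 49.5 to 66.9 in CONT and 23.0 to 69.4 in REST. The 3 REST cows that were low for the proteasome genes had the 3 lowest sums, 23.0 (0049), 31.3 (1015) and 40.7 (7043). Of these markers 5 of 6 were lower in REST, with LUM (-0.84, exact permutation p = 0.0087), COL1A2 (-0.65, exact permutation p = 0.032) and COL1A1 (-0.72, exact permutation p = 0.065) below an unadjusted limma p of 0.05. With slide as a block LUM (-0.83) stayed below that threshold, whereas COL1A2 (-0.45) and COL1A1 (-0.39) were above it, as they were without cow 0049 (-0.44 and -0.53). The fibroblast median was -0.63 over the 12 cows, -0.35 with slide as a block and 0.18 within slide 1. The 9 epithelial markers summed to 1647 to 5013 in CONT and 2408 to 6717 in REST, and cows 0049 (6717) and 1015 (5439) were the highest of the 12. This linear sum was set by 6 bright milk-protein genes, of which CSN1S1 and PAEP were each saturated on the array of CONT cow 1076. The other epithelial markers did not follow it: in cow 0049 the keratins KRT8 (2.40) and KRT18 (0.96) were the lowest of the 12 cows, below the lowest CONT cow (3.68 and 2.08), and EPCAM (3.67) was the lowest of REST. The 5 neutrophil markers, which follow leukocyte entry after LPS, summed to 19.6 to 173 in CONT and 6.00 to 194 in REST. Cow 0049 had the lowest sum, and REST cow 1058 and CONT cow 9040, both high for proteasome genes, had the highest.

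The other marker lists overlapped in part between the diets. The 5 myoepithelial markers summed to 78.9 to 202 in CONT and 72.9 to 115 in REST, the 7 macrophage markers to 9.16 to 17.1 and 9.40 to 23.8, and the 9 lymphocyte markers to 19.3 to 26.8 and 21.6 to 34.9. The 5 endothelial markers summed to 2.42 to 9.85 in CONT and 7.67 to 13.4 in REST, and the 5 adipocyte markers, of which 1 passed the background call on all arrays, to 7.48 to 164 and 100 to 242. At an unadjusted limma p below 0.05 were VWF of the endothelium (0.79, exact permutation p = 0.0043), CD3D of the T cells (0.60, exact permutation p = 0.056) and MS4A1 of the B cells (exact permutation p = 0.028). The CONT cow 8027 stood apart, with endothelial and adipocyte sums of 2.42 and 7.48, where the other CONT cows were at 8.09 to 9.85 and 55.2 to 164. The adipocyte sum was set by the bright FABP4, in which cow 8027 was the lowest of CONT (2.87). Among the dim adipocyte markers, this cow was the lowest of CONT for LEP but the highest of CONT for PLIN1 (-5.26) and CIDEC (-3.29). The VWF level of cow 8027 was 0.12 against a CONT median of 1.80, and without this cow the log2 FC of VWF was 0.50. Of the 9 lymphocyte markers 5 were lower in REST, with a median of -0.056, and the T-cell genes CD3E (-0.093), CD3G (-0.27) and CD8A (-0.22) had the opposite sign to CD3D, while CD2 was at 0.15. CD3D was at 0.50 with slide as a block, where it was no longer below an unadjusted limma p of 0.05, and at -0.020 within slide 3. Of the marker genes named, LUM stayed below an unadjusted limma p of 0.05 whichever cow was left out, and the others did not. MS4A1 was not well above background on any CONT array and was so on 4 of REST. Its mean over all REST arrays was 1.15-fold the background limit of the CONT arrays (-4.94). This is not a lower bound, because that mean includes REST arrays not well above background. The highest CONT value (-4.81) also lay above the limit. The p-values of MS4A1 rest on CONT values that were not above background, so no size of difference is read. The part of these differences between cows in the proteasome values was not tested.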

How the data were processed

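MG biopsies of 12 cows were measured on 1 one-color array each. The deposited intensities are the spot signals that the authors obtained with Feature Extraction 11.0.1.1 after background correction, without normalization between arrays, and the deposited outlier, background and saturation flags are of another kind (yes or no). The series matrix repeats these values exactly (largest difference 0). Depth does not apply to arrays, and the number of cows limits the precision.

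Non-control spots were kept (43803 of 45220), outlier spots set to missing (205 probes lost a value), and log2 intensities minus the 75th percentile of the array averaged per probe. Probes were named through RefSeq accessions. The array annotation and the RefSeq table (ARS-UCD) differ in assembly, so that no positions are given, and no sequences were used. REST and CONT were compared with limma 3.58.1 (R 4.3.3; lmFit, eBayes) over all probes, two-sided, with Benjamini-Hochberg adjustment in place of the Westfall-Young adjustment of the methods. The fit was tested on simulated data. Exact permutation tests (SciPy 1.17.1) enumerated the cows, the smallest possible p being 0.0022 with 6 against 6. The limit given for a gene not well above background in 1 diet used the lowest signal well above background on each array. Figures were drawn with matplotlib 3.10.9.

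Values per diet are given for genes with an unadjusted p below 0.05 or without overlap, the gene with the lowest p in each role, PSMA3 and PSMD2, the interferon-induced PSMB10, PSME1 and PSME2, and genes whose probes opposed each other beyond their standard errors (none). PSMB4, PSMB8, PSMC3, PSMD12 and TXNL1 are described outside this rule, after their values were seen. The members and lists were chosen with earlier results of these data known. Alternatives were another normalization, normexp background correction with quantile normalization, the deposited matrix, a filter on dim probes and outlier spots kept. Further ones were slide as a block or within slides, an intensity trend, the mean over probes, and leaving out each cow. Normexp used an offset of 50 on the median spot signal, because the mean signal is not in the files used. A planned search for promoter motifs was not run.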

Additional observations from a re-analysis of the deposited data

Results flagged for a closer look

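One value lay far from the others of its diet. PSMB11 in CONT cow 8027 was at -4.63, while the other 5 CONT cows were between -3.73 and -3.42, a gap of 0.745 of the range of the group (Dixon's test). The probe was called well above background on that array, but not on those of CONT cow 1024 and REST cow 0078. Of the 84 groups tested (42 genes in 2 diets), this was the only one, and chance would give about 1 in 20, or 4.2.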

How the results depend on the processing

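No pairing was assumed and no paired analysis was run. The sample titles give each cow its own number, the descriptions repeat one replicate number, and neither ties a CONT cow to a REST cow. No proteasome gene passed Benjamini-Hochberg adjustment in limma under any alternative. Between 30 (slide as a block) and 38 of the genes had a lower mean in REST, 33 to 38 under the other normalizations. The share of all genes with a lower mean moved from 56.5% to 66.4% with the array median, where the median of the proteasome genes was -0.16. The count at an unadjusted limma p below 0.05 became 1, always lower in REST, under some alternatives. The gene was PSMG1 with normexp correction and quantile normalization together. With quantile normalization alone, the lowest unadjusted limma p was 0.065 (PSMG1). The gene was PSMC6 with the filter on dim probes (of 41 genes), with an intensity trend and without REST cow 0078. Leaving out cows thus gave 0 to 1. The median log2 FC ranged from -0.13 to -0.047 when cows were left out, the core from -0.16 to -0.070, the cap from -0.12 to -0.026, the assembly genes from -0.29 to -0.13 and the activators from -0.16 to -0.0072. PSME1 ranged from -0.15 to 0.013. PSMD2 turned to 0.027 with slide as a block, which also brought PSME1 to -0.012, PSME2 to -0.026 and the activator median to -0.026. With normexp correction and quantile normalization together PSMD6 was at -0.11. The array median gave -0.13 for the cap, -0.17 for the activators and -0.14 for PSME1, for which the mean over its probes gave -0.15. Within slide 1 the medians turned positive for the 42 proteasome genes (0.048), core (0.17), cap (0.018), assembly (0.045) and activators (0.060), as they did within slide 3 (0.076, 0.038, 0.22, 0.027 and 0.12). Within slide 2 those of the 42 proteasome genes, core, cap and assembly were -0.36, -0.48, -0.30 and -0.49. The cause was not tested. Within slides 1 and 2 a diet has 1 cow, so that these differences carry that cow's own deviation. PSMB10 has no value within slide 1.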
